A study of Mus musculus with 2 samples.

Results

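Oxidative phosphorylation was followed through 99 protein-coding genes, out of 32285 genes in the count tables, that are named as subunits of the respiratory chain and of ATP synthase. The members were taken by gene symbol and not by a cut on their values, under a rule set with earlier results of these data known. It took symbols beginning with Ndufa, Ndufb, Ndufc, Ndufs or Ndufv (assembly factors left out), Uqcr, Cox4i, Cox5, Cox6, Cox7, Cox8 or Atp5. It also took the genes Sdha, Sdhb, Sdhc, Sdhd and Cyc1, and the mitochondrial symbols beginning with mt-Nd, mt-Co, mt-Cytb or mt-Atp. Of the 99 members, 86 lie in the nuclear genome, with 36 in complex I, 4 in complex II, 9 in complex III, 20 in complex IV and 17 in ATP synthase (complex V). The other 13 lie in the mitochondrial genome, with 7 in complex I, 1 in complex III, 3 in complex IV and 2 in complex V. Ndufa4, long listed with complex I, and its relative Ndufa4l2 were counted with complex IV, where the Ndufa4 protein is known to sit.

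The study profiled whole cells of mouse retinae by droplet-based single-cell RNA sequencing, to describe an early phase of photoreceptor degeneration after bright light. It held 2 libraries, 1 for controls and 1 for light damage, and each was made from the pooled retinae of 3 to 5 mice. All mice, controls included, carried 2 floxed Tgfbr2 alleles, which the study treats as functionally wild type, on a mixed Balb-C/CD1 background. They were of both sexes, were 6 to 9 weeks old, and had the L450 form of Rpe65, the isomerase of the visual cycle, on both alleles. Control mice spent 18 h in darkness, and mice of the light damage group spent the same 18 h in darkness, then 30 min in white light of 5000 lux and 6 h of recovery in dim light. With 1 library for each condition, no p-value was computed. The 95% intervals below are exact and cover counting error only, not the spread between mice.

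The respiratory chain sits in the inner mitochondrial membrane. Complexes I and II take electrons from NADH and succinate, complex III passes them to cytochrome c, complex IV hands them to oxygen, and complex V uses the proton gradient so built to make ATP. Complex II is encoded wholly in the nucleus, whereas the other complexes combine nuclear subunits with a core made from mitochondrial DNA, so that both genomes have to supply transcripts for 1 machine. In photoreceptors the mitochondria are packed into the inner segment, beside the outer segment and away from the cell nucleus, and the cells are known for a high energy demand.

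The droplets were placed into 5 classes by their marker UMIs (unique molecular identifiers, each standing for 1 captured transcript): rods, split at an unspliced share of 25% into cytoplasm-rich rods below and nucleus-rich rods above, cones, retinal pigment epithelium (RPE) and Müller glia. The class names rest on markers alone, and the limits for naming were set after the marker shares had been seen. The control and light damage libraries gave 2489 and 1919 cytoplasm-rich rods, 802 and 3110 nucleus-rich rods, 21 and 57 cones, 152 and 278 RPE droplets, and 43 and 31 Müller glia. Within 5 percentage points of the rod split lay 92 and 22 cytoplasm-rich rods and 83 and 38 nucleus-rich rods. Less than 25% above their naming limit lay 6 and 12 cones, 2 and 13 RPE droplets, and 0 and 4 Müller glia. The median RPE droplet carried 89.7 and 70.7 RPE-marker UMIs per 1000 UMIs, and 23.2 and 25.7 UMIs per 1000 from the Müller glia list, some of whose genes RPE cells also express. The 57 light damage cones held 27.0 cone-marker UMIs per 1000 in the median droplet, against 15.4 rod-marker UMIs, but the 21 control cones held 22.9 cone-marker UMIs against 59.8 rod-marker UMIs.

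Facts of the libraries that touch every result are these. The control library held 30605284 UMIs and the light damage library 54413601, and 18.7% and 32.7% of them came from unspliced RNA. The libraries shared 7 of the barcodes kept. Automatic doublet calling marked 1 droplet in each library, so the droplets with the highest doublet scores were left out instead (114 and 275). Xist, the RNA of the inactive X chromosome, stood at 418 CPM (counts per 1000000 UMIs) in the control library and at 0.132 CPM in the light damage library, and the summed Y-linked genes stood at 360 and 685 CPM. The light damage library thus carried next to no Xist although both sexes are described, so sex and light damage cannot be told apart, and 3 members are X-linked (Ndufa1, Ndufb11 and Cox7b).

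The promoters of 3 nuclear members on which results below turn are printed here, since their values part company with each other: Cox8a, the cytochrome c oxidase subunit 8 that was seen in every class; Cox8b, its relative known from heart and skeletal muscle, which was seen mostly in RPE; and Ndufa3, a complex I subunit that was higher after light damage where most members were lower. The stretches run from 180 bases before the annotated start to 2 bases after it and come from RefSeq on GRCm38.p6. They lie at chr19:7217615-7217796 on the minus strand for Cox8a, at chr7:140900445-140900626 on the minus strand for Cox8b, and at chr7:3617193-3617374 on the plus strand for Ndufa3. Capitals mark the 2 motif matches found, a CCAAT box read on the other strand and an ETS core on the other strand:
Cox8a: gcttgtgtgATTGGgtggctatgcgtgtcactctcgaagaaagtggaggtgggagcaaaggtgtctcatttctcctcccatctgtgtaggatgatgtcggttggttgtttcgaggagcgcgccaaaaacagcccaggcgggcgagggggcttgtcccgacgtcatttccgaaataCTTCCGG
Cox8b: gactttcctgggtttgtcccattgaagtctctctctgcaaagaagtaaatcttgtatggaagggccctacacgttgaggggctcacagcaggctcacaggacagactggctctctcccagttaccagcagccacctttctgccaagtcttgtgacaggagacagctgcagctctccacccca
Ndufa3: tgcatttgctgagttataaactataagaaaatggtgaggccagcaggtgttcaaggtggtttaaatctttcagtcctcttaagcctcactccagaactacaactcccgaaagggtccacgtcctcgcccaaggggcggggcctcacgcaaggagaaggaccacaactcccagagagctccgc
The Cox8a stretch held both matches, and those of Cox8b and Ndufa3 held no match to any motif searched.

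Both strands of 72 promoter windows (250 bases before to 50 after the start) of 67 members were searched for 5 short motifs, and 32 members had no window in the RefSeq table. The ETS core CCGGAAG, recognised by factors such as Gabpa, was found in 16 of the 72 windows (22.2%) and in 8.86% of all 32851 windows. The core GCGCATGC of nuclear respiratory factor 1 was found in 10 (13.9%) against 2.71%, and the YY1 motif AAGATGGCG in 7 (9.72%) against 1.40%. The ERR core AAGGTCA stood in 8 (11.1%) against 4.72%, and CCAAT in 30 (41.7%) against 37.4%. A match is only a match of letters.

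Levels are first given as shares of all spliced and ambiguous UMIs, pooled over the droplets of a class. In control cytoplasm-rich rods the nuclear members took 41.7 and the mitochondrial members 37.8 of every 1000 UMIs. Control cones held 39.3 and 23.3, RPE 38.2 and 11.8, nucleus-rich rods 19.4 and 17.4, and Müller glia 15.1 and 12.1 UMIs per 1000. RPE thus held nearly the same nuclear share as cytoplasm-rich rods but a much smaller mitochondrial share, with 0.308 mitochondrial UMIs per nuclear UMI against 0.908 in those rods. The control classes also differed in unspliced share. It was 6.58% of pooled UMIs in cytoplasm-rich rods, 26.6% in cones, 4.67% in RPE, 54.3% in nucleus-rich rods and 53.1% in Müller glia. The part of this share in the levels was not tested. After light damage the nuclear and mitochondrial shares were 32.7 and 35.2 in cytoplasm-rich rods, 25.2 and 19.1 in cones, 39.1 and 17.5 in RPE, 12.4 and 9.35 in nucleus-rich rods, and 8.98 and 7.56 in Müller glia. On these pooled UMIs, RPE was the only class of the 5 in which neither share was lower after light damage; with every droplet weighted alike its nuclear share was lower by a little (-0.05 on the log2 scale). The mitochondrial UMIs are the very quantity on which droplets were filtered, since droplets with 10% or more were left out and the 13 members make up all mitochondrial UMIs in the tables.

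**Figure D1:**
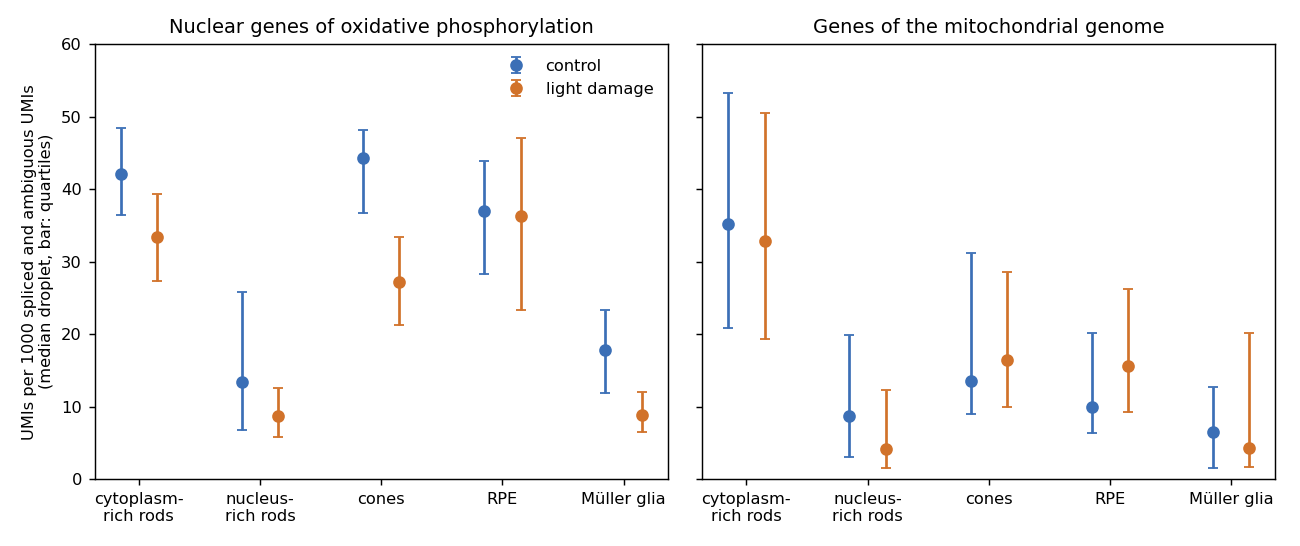
UMIs of the nuclear members (left) and of the mitochondrial members (right) per 1000 spliced and ambiguous UMIs of a droplet, for the 5 classes in the control and the light damage library; the marks stand for the median droplet and the bars for the middle 50% of droplets. The nuclear medians of control and light damage were 42.0 and 33.4 in cytoplasm-rich rods and 13.4 and 8.80 in nucleus-rich rods, while the RPE medians were 37.0 and 36.3.

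The spread among droplets was wide beside these differences. In cytoplasm-rich rods the middle 50% of droplets held 36.4 to 48.4 nuclear UMIs per 1000 in the control (median 42.0) and 27.4 to 39.3 after light damage (median 33.4), so the ranges overlapped. For the mitochondrial members they held 20.8 to 53.3 (median 35.2) and 19.4 to 50.5 (median 32.9), nearly the same range. In RPE the nuclear members spanned 28.3 to 43.9 and 23.4 to 47.0, and the mitochondrial members 6.41 to 20.2 (median 9.99) and 9.34 to 26.3 (median 15.6). Droplets of 1 library share their mice and their preparation and were not treated as replicates.

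In cytoplasm-rich rods, the nuclear subunits were lower after light damage and the mitochondrial ones nearly level. The summed nuclear members differed by -0.35 on the log2 scale (interval -0.36 to -0.34; light damage over control, as in all log2 ratios below unless named otherwise), and the summed mitochondrial members by -0.10 (-0.11 to -0.10). A member was counted as higher or lower when its log2 ratio was past 0.32 in size and it had at least 100 UMIs. On that count 42 of 79 nuclear members were lower and 1 was higher, against 11.1% lower and 31.6% higher among all 8060 genes counted alike. Of the 13 mitochondrial members, 0 were lower and 1 was higher. The median gene of these droplets was higher by 0.16 after light damage, and relative to it 64 nuclear members were lower and 0 higher. On that scale 1654 of all 8060 genes were lower and 1427 higher. At a limit of 1.5-fold, 1 nuclear member was lower and 0 were higher, against 228 lower and 934 higher of all 8060 genes. Members under 100 UMIs, which were not counted, numbered 7 in cytoplasm-rich rods, 8 in nucleus-rich rods, 25 in cones, 7 in RPE and 80 in Müller glia.

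Among the nuclear subunits, those of cytochrome c oxidase, complex IV, were furthest from the control level in cytoplasm-rich rods. Their sum differed by -0.45, and 12 of 13 counted were lower. Cox8a, a small subunit 8, stood at 1656 CPM in the control and 1060 CPM after light damage (-0.64, -0.68 to -0.60). Cox4i1, the usual form of subunit 4, stood at 1337 and 936 CPM (-0.52). Ndufa4, which contributed the most UMIs of any nuclear member, stood at 3196 and 2360 CPM (-0.44).

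Nuclear subunits of complex I were lower by less, with a summed difference of -0.31. Of 36 counted members, 18 were lower, and 1, Ndufa3, was higher. Ndufa3, an accessory subunit of the membrane arm, stood at 204 CPM in the control and 257 CPM after light damage (0.33, 0.23 to 0.43). In the free RNA of barcodes with under 50 UMIs, Ndufa3 stood at 211 and 436 CPM (1.05, 0.85 to 1.24). Free RNA was estimated at 0.86% and 0.61% of the UMIs of these rods, and its part in the Ndufa3 values was not tested. Ndufb11, an X-linked accessory subunit and the complex I member with the most UMIs, stood at 767 and 581 CPM. Ndufa8, another accessory subunit, stood at 139 and 154 CPM (0.15, 0.03 to 0.28), under the limit for a count.

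The nuclear subunits of complex V differed by -0.31 in sum, and 8 of 17 members were lower. Atp5h, subunit d of the peripheral stalk, stood at 851 CPM in the control and 588 CPM after light damage (-0.53). The catalytic beta subunit Atp5b was closer to the control level, at 1479 and 1392 CPM (-0.09). The 3 nuclear genes for the c subunit of the rotor differed by -0.29 (Atp5g1), -0.06 (Atp5g2) and -0.11 (Atp5g3).

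The nuclear sums of complexes III and II were closest to the control level. In complex III, 3 of 9 nuclear members were lower and their sum differed by -0.27. Uqcrq, a small subunit, stood at 912 and 775 CPM, whereas Uqcrc1, a core subunit, stood at 201 and 231 CPM (0.20, 0.10 to 0.30) and Uqcrc2, the other core subunit, at 105 and 115 CPM (0.13, -0.02 to 0.27). Complex II, which also serves the citric acid cycle, differed by -0.17 in sum. Its flavoprotein Sdha stood at 197 and 190 CPM (-0.06) and its iron-sulfur subunit Sdhb at 73.0 and 68.7 CPM (-0.09), while the membrane anchors Sdhc (120 and 91.6 CPM, -0.39) and Sdhd (49.4 and 40.3 CPM, -0.29) were further from the control. With the members of both genomes summed, the order was another one, with complex III at -0.27 (-0.28 to -0.25), complex IV at -0.24 (-0.25 to -0.24), complex V at -0.23 (-0.25 to -0.22) and complex I at -0.18 (-0.19 to -0.17).

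In nucleus-rich rods both genomes were lower after light damage. The summed nuclear members differed by -0.64 (-0.66 to -0.63) and the summed mitochondrial members by -0.90 (-0.91 to -0.88), with the median gene at 0.04. Of 78 nuclear members, 63 were lower and 1 was higher, against 19.7% lower and 32.9% higher among all genes counted, and 12 of 13 mitochondrial members were lower and 1 was higher. The order of the nuclear sums was as in cytoplasm-rich rods. Nuclear complex IV differed by -0.85 in sum with 12 of 12 members lower, complex I by -0.61 with 33 of 36 lower and 1 higher, complex V by -0.58 with 11 of 17 lower, complex III by -0.44 with 5 of 9 lower, and complex II by -0.38. Over both genomes complex IV differed by -0.87, complex III by -0.78, complex I by -0.69 and complex V by -0.68.

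In nucleus-rich rods Cox4i1 stood at 537 CPM in the control and 253 CPM after light damage (-1.09), and Ndufa4 at 1190 and 614 CPM (-0.95). Cytochrome b, mt-Cytb, the mitochondrial core of complex III, stood at 2631 and 1219 CPM (-1.11). mt-Nd6, the 1 member encoded on the light strand of the mitochondrial genome, stood at 70.9 and 25.5 CPM (-1.47, -1.77 to -1.17), the lowest ratio of any member here. Against these, Ndufa3 was again higher, at 88.2 and 134 CPM (0.60, 0.37 to 0.83), and Sdhb was at its control level, at 58.1 and 57.5 CPM (-0.02).

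The nucleus-rich classes of the libraries were unlike each other in depth, with a median of 3896 UMIs in the control and 6289 after light damage, and the rod-marker share was 44.5 and 33.7 UMIs per 1000. The part that these gaps take in the ratios was not tested. With every droplet weighted alike the nuclear sum stood at -0.73 and the mitochondrial one at -0.56.

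**Figure D2:**
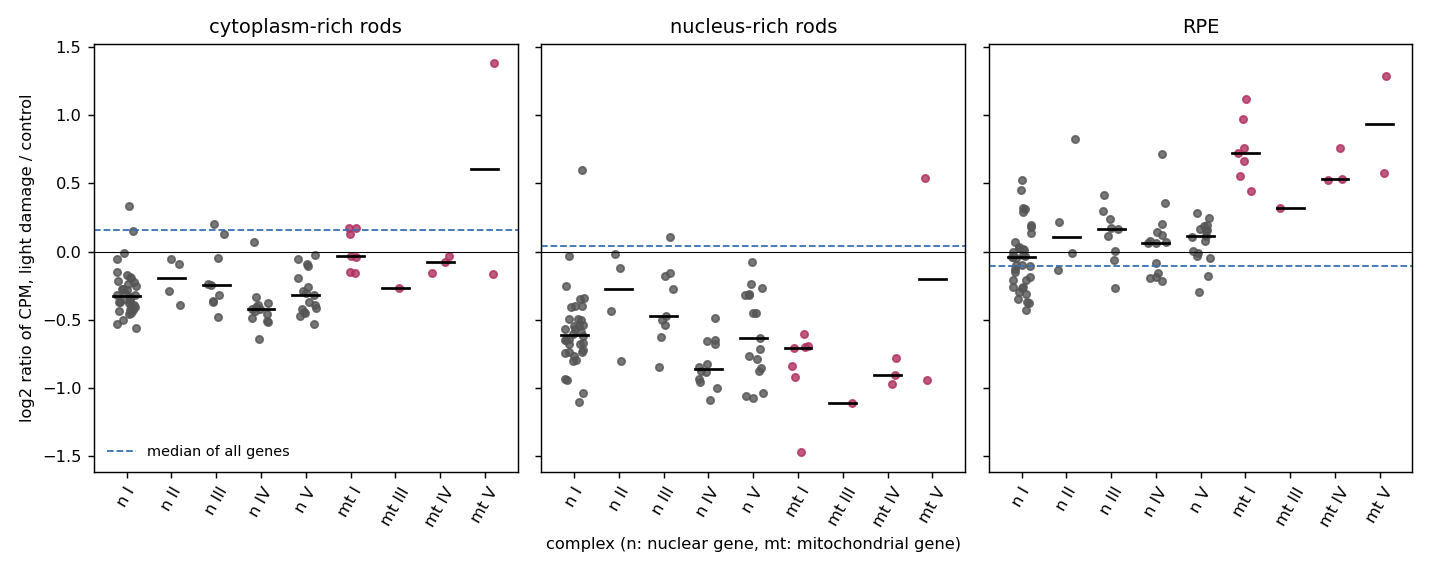
Log2 ratio of light damage over control for each member with at least 100 UMIs, by complex and genome, in cytoplasm-rich rods, nucleus-rich rods and RPE; each point is 1 gene, short bars are group medians, and the dashed line marks the median gene of the class. Among the nuclear complexes, complex IV has the lowest median in both rod classes (-0.42 in cytoplasm-rich rods), and the RPE points sit around 0 for nuclear members and above 0 for the mitochondrial ones.

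Rods were next compared within each library, to see how the members follow the unspliced share. Nucleus-rich rods held fewer subunit transcripts than cytoplasm-rich rods in the control, by -1.10 (-1.11 to -1.08) for the nuclear members and -1.12 (-1.14 to -1.10) for the mitochondrial members, while the median gene was at 0.52. Of 78 nuclear members, 71 were lower and 1 was higher in nucleus-rich rods, against 19.8% lower and 56.8% higher among all genes, and 13 of 13 mitochondrial members were lower. In light damage the same comparison gave -1.39 (-1.40 to -1.38) and -1.91 (-1.92 to -1.90), with the median gene at 0.49. There 75 of 79 nuclear members were lower and 0 higher, against 16.8% and 63.8% of all genes, and again 13 of 13 mitochondrial members were lower. The gap was not particular to the members. Of 81 cytosolic ribosomal protein genes, 79 were lower and 0 higher in each library, with sums of -1.21 in the control and -1.51 in light damage. With unspliced UMIs added to the totals, the gaps were -1.98 and -2.15 in the control and -2.16 and -2.86 in light damage. The rods were split on their unspliced share, so this total widens the gaps by itself and the widening is no separate result.

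The members did not move as 1 block between these rods. Ndufa4 (3196 CPM in control cytoplasm-rich rods, 1190 CPM in nucleus-rich rods, -1.43), Cox7a2, a subunit 7a form (739 and 281 CPM, -1.39), and Cox6c (1822 and 722 CPM, -1.34) were among the furthest below. Ndufs1, the large iron-sulfur subunit of complex I, was instead higher, at 62.7 and 89.2 CPM (0.51, 0.25 to 0.76), and Sdha was level (-0.02). In light damage the widest gaps were mostly mitochondrial, with mt-Nd6 at -2.03, mt-Co2 at 4455 and 1147 CPM (-1.96), mt-Co3 at 6423 and 1670 CPM (-1.94) and mt-Cytb at 4674 and 1219 CPM (-1.94). Longer genes tended to be closer to level. Nuclear members shorter than 10 kb had a median of -1.14 in the control (53 genes) and -1.46 in light damage (54 genes), and those of 20 kb or more -0.64 and -0.86 (10 genes in each). Over genes of 1 library pair, Spearman's rho with gene length was 0.50 (78 genes) and 0.34 (79 genes), as a description over genes that share the same droplets.

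Along the unspliced share, the nuclear members went down step by step in both libraries, and the light damage droplets lay below the control droplets up to an unspliced share of 70%. In droplets with under 4% unspliced UMIs the median nuclear share was 44.3 per 1000 in the control and 36.8 after light damage. From 10 to 25% it was 36.1 and 20.8, from 25 to 40% it was 30.4 and 13.4, and from 50 to 60% it was 13.8 and 8.33. At 70% or more it was 5.16 in both. The mitochondrial median went from 35.6 in the control and 31.0 after light damage under 4% to 20.8 and 3.85 between 25 and 40%, and to 3.09 and 5.63 at 70% or more, where light damage lay above. Between 6 and 10% it was also higher after light damage, at 44.8 against 34.2, and between 10 and 25% at 33.0 against 31.0. In the step from 25 to 40% the median droplet held 2256 UMIs in the control and 8441 after light damage, and the part of that gap in depth was not tested.

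**Figure D3:**
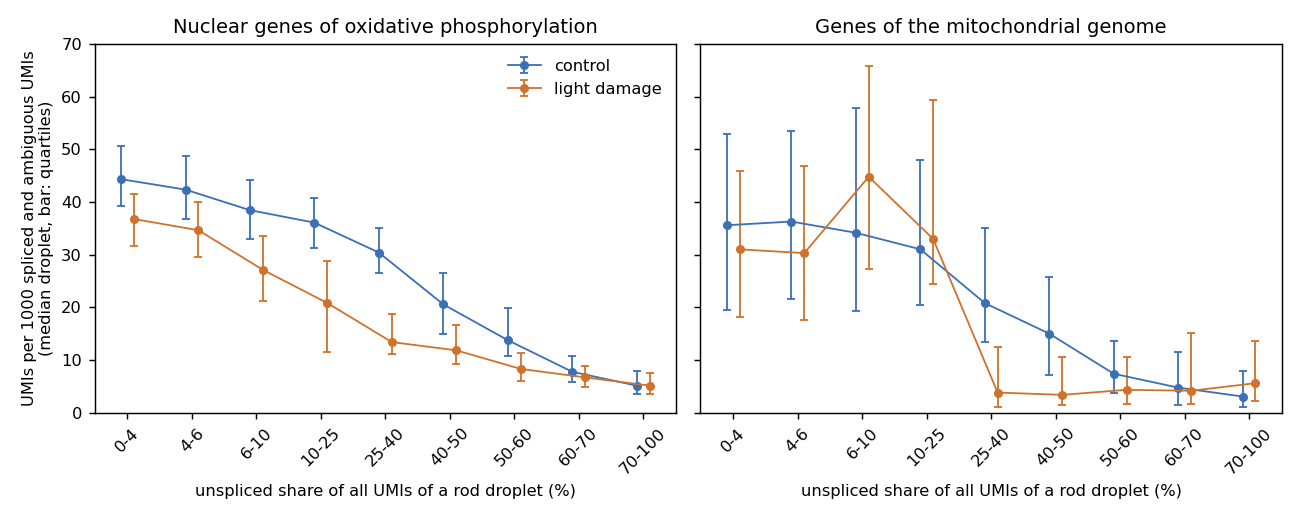
Median UMIs of nuclear (left) and mitochondrial (right) members per 1000 spliced and ambiguous UMIs in rods, in steps of the unspliced share of a droplet's UMIs; the bars span the middle 50% of droplets. Nuclear shares decline from 44.3 to 5.16 in the control and from 36.8 to 5.16 after light damage.

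The nuclear genes also gave unspliced UMIs, which stem from nuclear precursor RNA. In nucleus-rich rods there were 4319 of them in the control and 19510 after light damage, or 1853 and 1580 per 1000000 unspliced UMIs (-0.23, -0.28 to -0.18, with the median gene at -0.11). Of 48 members with at least 100 unspliced UMIs, 16 were lower and 4 higher, with a median of -0.17, against 26.3% lower and 20.2% higher among all 8900 genes counted. The unspliced gap was thus smaller than the gap of -0.64 in spliced and ambiguous UMIs, on a scale with its own total. In cytoplasm-rich rods the members had only 895 and 497 unspliced UMIs (-0.60, -0.77 to -0.44), and 2 members reached 100. Mitochondrial genes have no introns and gave 0 unspliced UMIs, so their UMIs lower a droplet's unspliced share by themselves.

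RPE went another way than the rods. Its nuclear members were level in sum (0.03, 0.01 to 0.05) and its mitochondrial members were higher by 0.57 (0.54 to 0.61), with the median gene at -0.11. Of 79 nuclear members, 4 were lower and 6 higher, against 23.7% lower and 29.6% higher among all genes, and 12 of 13 mitochondrial members were higher and 0 lower. At 1.5-fold, 0 nuclear members were lower and 2 higher, against 478 lower and 707 higher of all 3993 genes counted. With every droplet weighted alike the nuclear sum stood at -0.05 and the mitochondrial one at 0.41. Median depth was 2718.5 UMIs in the control and 6553.5 after light damage, the median rod-marker share 3.67 and 0.871 UMIs per 1000, and the estimated share of free RNA 8.06% and 3.67%. With free RNA subtracted the mitochondrial ratio was 0.91, and the nuclear ratio 0.06.

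The highest mitochondrial ratio above 100 CPM in RPE was that of mt-Nd4l, a membrane subunit of complex I, at 107 CPM in the control and 232 CPM after light damage (1.12, 0.76 to 1.49). mt-Co1, which carries the oxygen-reducing site of complex IV, stood at 1709 and 2895 CPM (0.76, 0.67 to 0.85). The lowest of the 13 was mt-Cytb, at 1719 and 2142 CPM (0.32, 0.23 to 0.41). All 13 intervals lay above 0.

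Among the nuclear members of RPE, those that were higher belonged to several complexes. Cox8b, a subunit 8 form, stood at 1293 CPM in the control and 2122 CPM after light damage (0.71, 0.61 to 0.82). Sdhb stood at 76.2 and 135 CPM (0.82, 0.40 to 1.28), and Cox7b, an X-linked subunit of complex IV, at 624 and 798 CPM (0.35, 0.20 to 0.51). Ndufv2, which carries an iron-sulfur cluster of complex I (0.45, 0.14 to 0.77), and Uqcrc1 (0.41, 0.05 to 0.79) were also higher, while the interval of the sixth, Ndufs1 (0.52), spanned 0. The 4 that were lower were all of complex I: Ndufb11 at 912 and 707 CPM (-0.37), Ndufb4 at 600 and 472 CPM (-0.35), Ndufa10 (-0.43) and Ndufv1 (-0.38, an interval that spanned 0). In nuclear sums complex I differed by -0.08, complex V by 0.05, complexes III and IV by 0.10 each, and complex II by 0.22. Atp5h, lower in rods and cones, stood at 1160 and 943 CPM in RPE (-0.30), and Atp5b at 614 and 729 CPM (0.25).

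Within the mitochondrial genome, 1 member stood apart. mt-Atp8, the small membrane subunit of ATP synthase, stood at 118 CPM (974 UMIs) in control cytoplasm-rich rods and 307 CPM (2102 UMIs) after light damage (1.38, 1.27 to 1.49). The other 12 mitochondrial members of these rods lay between -0.27 for mt-Cytb and 0.18 for mt-Nd4l. mt-Atp8 was also higher in nucleus-rich rods, at 66.3 and 96.5 CPM (0.54, 0.28 to 0.82), where the other 12 were lower, and in RPE, at 46.9 and 115 CPM (1.29, 0.76 to 1.87).

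mt-Atp8 and mt-Atp6 overlap on the mitochondrial genome and are carried on 1 transcript, so their reads are not cleanly separable, and neither are those of mt-Nd4l and mt-Nd4. Of the UMIs of mt-Atp8 and mt-Atp6 together, mt-Atp8 took 1.73% (1.63 to 1.84) in control cytoplasm-rich rods and 4.90% (4.69 to 5.10) after light damage. The shares were 2.14% (1.79 to 2.54) and 5.76% (5.44 to 6.10) in nucleus-rich rods and 2.75% (1.89 to 3.86) and 4.44% (3.93 to 4.99) in RPE, and in these classes the intervals did not overlap. In cones they were 2.68% (1.23 to 5.02, from 9 UMIs) and 3.79% (2.95 to 4.79), and in Müller glia 0.823% (0.0998 to 2.94, from 2 UMIs) and 3.64% (2.10 to 5.85), with overlapping intervals. In the free RNA of barcodes with under 50 UMIs, the share was 0.681% (0.535 to 0.854) in the control and 0.947% (0.811 to 1.1) after light damage, a smaller gap. mt-Nd4l took 12.6% and 14.3% of its pair in cytoplasm-rich rods, and 10.6% and 14.0% in RPE. The mouse nuclear genome also holds copies of mitochondrial sequence, and how the authors' counting split reads between them was not tested.

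**Figure D4:**
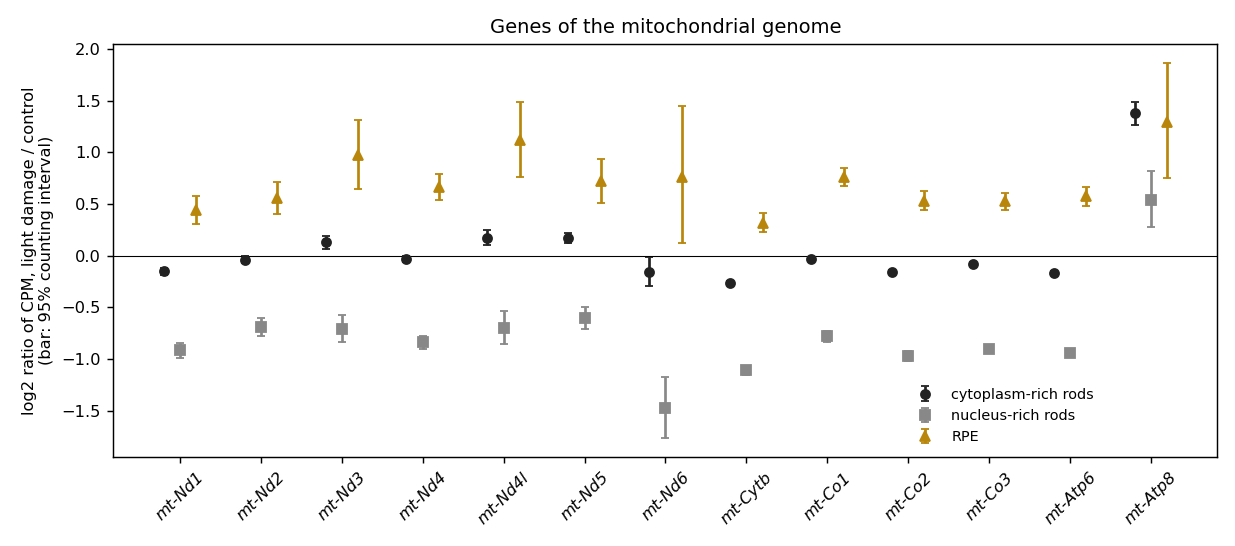
Log2 ratio of light damage over control for the 13 mitochondrial members in cytoplasm-rich rods, nucleus-rich rods and RPE, with exact 95% counting intervals as bars. mt-Atp8 lies above 0 in each of these classes (1.38, 0.54 and 1.29), while the other 12 lie below 0 in nucleus-rich rods and above 0 in RPE.

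Complex IV is the complex with the most tissue forms, and several of its members were tied to 1 class. Cox8b stood at 1293 CPM in control RPE and 2122 CPM in light damage RPE, against 1.02 to 4.24 CPM in the rod classes, 0 and 1.7 CPM in cones and 0 and 21.5 CPM in Müller glia. It was detected in 88 of 152 control RPE droplets (57.9%, 49.6 to 65.8) and in 205 of 278 after light damage (73.7%, 68.2 to 78.8), against 0.161 to 1.38% of rod droplets. RPE droplets also differed in depth (medians of 2718.5 and 6553.5 UMIs), and the part of depth in the detection rates here and below was not tested. Per droplet the RPE median was 346 and 758 Cox8b UMIs per 1000000. The single droplet with the most held 15.5% of the Cox8b UMIs of control RPE and 4.23% of those after light damage. Cox8a was present in every class beside it, and stood at 2746 and 2591 CPM in RPE. In free RNA Cox8b stood at 67.5 CPM in the control and 393 CPM after light damage.

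Cox4i2, the form of subunit 4 known from lung and vascular cells and from the response to low oxygen, was highest in the Müller glia class. It stood there at 398 CPM in the control and 123 CPM after light damage (46 and 40 UMIs), in 15 of 43 droplets (34.9%) and 16 of 31 (51.6%), against 0.849 to 11.4 CPM in the other classes. Free RNA held 7.94 and 14.1 CPM. Cox4i2 is also known from pericytes, and 1 control droplet with 19 UMIs of Rgs5, a pericyte marker chosen after its values were seen, held 5 of the 46 UMIs. Without it the control level was 371 CPM. The summed endothelial markers Cldn5, Pecam1, Kdr and Cdh5 stood at 0.597 UMIs per 1000 in control Müller glia and 0.602 after light damage, against 0 to 0.0097 in the other classes. These were nearly all of Kdr (67 of 69 UMIs and 195 of 196), with 2 and 0 UMIs of Cldn5, 0 and 1 of Pecam1 and 0 of Cdh5. Droplets with any of these UMIs numbered 18 of 43 and 27 of 31. The remaining 25 and 4 droplets held 10 of the 46 and 1 of the 40 Cox4i2 UMIs. That was 364 CPM in the control and, from that 1 UMI, 49.0 CPM after light damage. The part of vascular RNA in the Cox4i2 level was not tested.

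Other forms were tied to a class less sharply. Cox6b2, the testis form of subunit 6b, stood at 116 and 99.8 CPM in RPE (31 of 152 droplets, 20.4%, and 107 of 278, 38.5%), against 1.61 to 5.2 CPM in rods. In Müller glia it stood at 95.2 and 52.2 CPM, from only 11 and 17 UMIs in 6 of 43 and 7 of 31 droplets. Cones held 3 and 7 UMIs of it, and free RNA 10.3 and 32.9 CPM. Cox7a1, the heart and muscle form of subunit 7a, stood at 24.9 and 26.0 CPM in RPE (17 and 60 UMIs) and 3.06 to 7.02 CPM in rods. In cones Cox7a1 had 0 UMIs, but 3 UMIs there would be 34.2 CPM in the control and 5.11 CPM after light damage. Müller glia held 2 and 3 UMIs of Cox7a1, too few for a comparison. Cox7a2 and Cox7a2l, relatives of Cox7a1 by symbol, stood at 739 and 553 CPM and at 419 and 305 CPM in cytoplasm-rich rods. Cox6a2 and Cox8c, known from muscle and testis, had 0 UMIs in every class, which allows up to 3 UMIs in each. Cox7b2 had 2 UMIs in all, both in light damage RPE, and Ndufa4l2, a relative of Ndufa4, 1 UMI each in 3 of the groups.

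**Figure D5:**
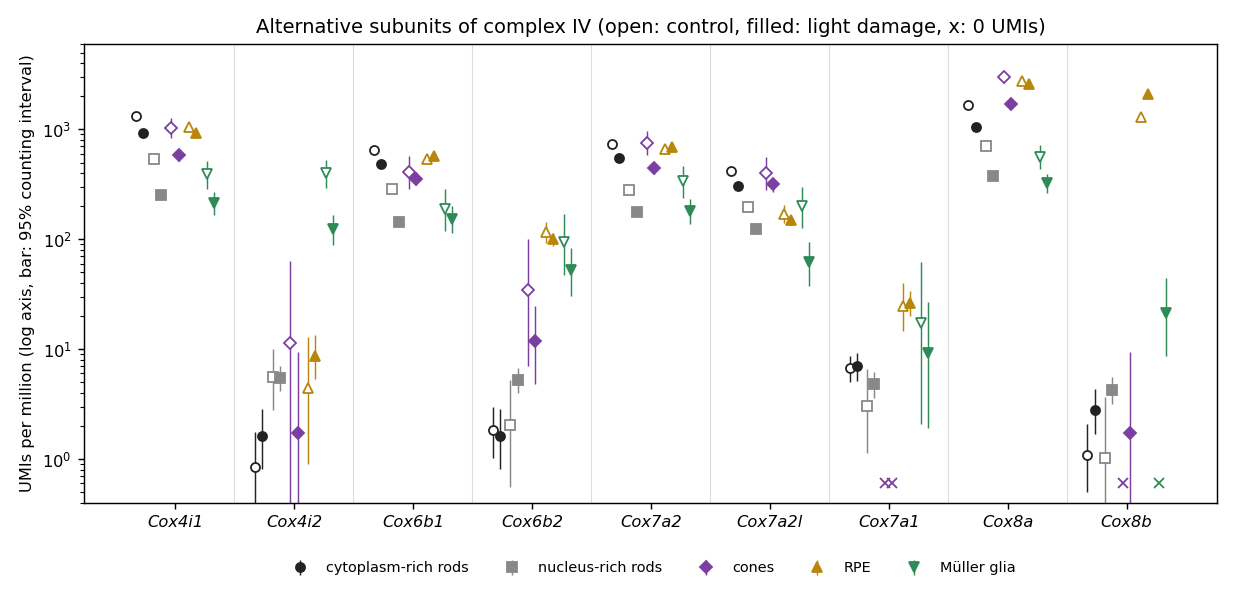
CPM on a log axis of the tissue forms of complex IV subunits (Cox4i2, Cox6b2, Cox7a1 and Cox8b) and of their relatives by symbol in the 5 classes of both libraries. Bars are exact 95% counting intervals, open marks are the control, filled marks light damage and crosses groups with 0 UMIs. Cox8b reaches 1293 and 2122 CPM in RPE against 1.02 to 4.24 CPM in rods, and Cox4i2 reaches 398 and 123 CPM in Müller glia.

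Cones and Müller glia held few droplets, and their libraries were far apart in depth, with median UMIs of 2292 and 16336 in cones and of 2475 and 20480 in Müller glia. Rod-marker UMIs per 1000 were 59.8 in control cones against 15.4 after light damage, and 16.7 against 2.41 in Müller glia. The largest droplet held 18.2% of the control cone UMIs and 14.5% of those of control Müller glia. Unspliced RNA gave 26.6% of the pooled UMIs in control cones and 35.6% after light damage, and 53.1% and 50.5% in Müller glia. The part that these gaps take in the values that follow was not tested.

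In cones the summed nuclear members differed by -0.64 (-0.70 to -0.59) and the mitochondrial ones by -0.29 (-0.36 to -0.22), while the median gene stood at -0.49. Of 63 nuclear members, 46 were lower and 2 higher, against 27.2% lower and 39.3% higher among all genes, and 6 of 11 mitochondrial members were lower. Relative to the median gene 15 nuclear members were lower and 8 higher, against 116 lower and 894 higher of all 1377 genes counted. On that scale the mitochondrial sum stood at 0.20. In the 2 control and 33 light damage cones under 20 rod-marker UMIs per 1000, the sums differed by -0.49 and -0.90. Ndufa4 stood at 2385 CPM in the control and 1168 CPM after light damage (-1.03), Atp5h at 936 and 413 CPM (-1.18), and Ndufa13, an accessory subunit of complex I, at 445 and 176 CPM (-1.34). The pair that was higher were Ndufa11 (0.39) and Uqcrc1 (0.37).

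In Müller glia the sums differed by -0.75 (-0.83 to -0.66) and -0.68 (-0.78 to -0.58), with the median gene at -0.56. Here the median gene rested on 245 genes, whereas the median over all 709 genes with at least 100 UMIs was 0.27. Only 10 nuclear and 9 mitochondrial members reached 100 UMIs: 7 of the 10 were lower and 1 was higher, against 28.8% lower and 48.1% higher among all genes, and 8 of the 9 were lower. Relative to the median gene 3 nuclear members were lower and 3 higher, against 104 lower and 484 higher of all 709 genes counted. Ndufa4 stood at 641 and 246 CPM (-1.38) and mt-Nd2, a membrane subunit of complex I, at 892 and 375 CPM (-1.25), and the 1 higher nuclear member was Uqcrq (0.48). With droplets weighted alike the mitochondrial sums turned positive in both classes, at 0.22 in cones and 0.40 in Müller glia.

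Other gene lists around the respiratory chain were counted alike in cytoplasm-rich rods, where 11.1% of all genes were lower and 31.6% higher. Of 42 assembly factors 6 were lower and 8 higher (sum -0.12), and of 78 mitochondrial ribosomal proteins 14 were lower and 6 higher (-0.19). Citric acid cycle enzymes were closest to level, with 0 of 15 lower and 2 higher (-0.08), namely Dlat (0.55) and Cs (0.37). Cytosolic ribosomal proteins, short and abundant transcripts like those of the subunits, resembled the nuclear members, with 44 of 81 lower and 0 higher (-0.33). The shares of all genes in the other classes are those given above. In nucleus-rich rods 64 of 81 ribosomal protein genes were lower and 0 higher (-0.63), and in cones 60 of 72 and 0 (-0.67). In RPE 2 of 78 were lower and 9 higher (0.09). In Müller glia they stood apart from the nuclear members, with 13 of 68 lower and 15 higher (-0.10).

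Of the factors that govern mitochondrial RNA and respiratory genes, 2 of 11 were lower and 4 higher in cytoplasm-rich rods (sum 0.12), counts too small to set apart from the 11.1% and 31.6% of all genes. Tfam, which packages and transcribes mitochondrial DNA, stood at 16.3 CPM in the control and 30.4 CPM after light damage (0.90, 0.58 to 1.23). Gabpa, an ETS factor known to act on many subunit promoters, stood at 16.6 and 28.9 CPM (0.80, 0.48 to 1.13), Yy1 at 109 and 162 CPM (0.57, 0.44 to 0.70), and Esrra, an orphan nuclear receptor, at 8.49 and 14.0 CPM (0.72). Lower were Nrf1, nuclear respiratory factor 1, at 28.9 and 20.9 CPM (-0.47, -0.78 to -0.16), and the coactivator gene Ppargc1b at 82.7 and 63.7 CPM (-0.38). Among the assembly factors, Ndufaf6 (0.78) and Tmem70 (0.71) were higher and Uqcc2 (214 and 147 CPM, -0.54) and Sdhaf1 (237 and 168 CPM, -0.50) lower. In nucleus-rich rods the ratios were 0.31 for Tfam (-0.09 to 0.74), 0.53 for Gabpa, 0.93 for Yy1 and 0.01 for Esrra (-0.46 to 0.51). Nrf1 stood there at -0.38 and Ppargc1b at -0.30. In RPE Ppargc1a, a coactivator of mitochondrial biogenesis, stood at 76.2 and 52.5 CPM (-0.54), and Yy1 at 46.9 and 87.2 CPM (0.90).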

How the data were processed

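Retinal cells of the control and the light damage pool were captured with 10x Genomics chemistry. The authors mapped reads to mm10 with Salmon 1.10.1 and alevin-fry 0.8.1, per the submitters' notes, which also name Cell Ranger 7.0.1, and deposited raw UMI counts per gene and barcode as spliced, unspliced and ambiguous. Reads on the opposite strand of a transcript had been left out by the authors. Spliced and ambiguous counts were summed here, and symbols of 32235 of the 32285 genes were taken from GENCODE.

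Barcodes above the inflection of the rank curve were kept (3896 control, 5934 light damage). Those with 10% or more mitochondrial UMIs (113 and 65) were left out, and then those with the highest Scrublet scores, at 0.8% per 1000 droplets (114 and 275). Of the 3669 and 5594 kept, 37 and 65 belonged to other classes and 125 and 134 stayed unnamed. Rods had at least 15 rod-marker UMIs per 1000, RPE 20, cones 15 and Müller glia 10 UMIs per 1000 of their own markers. CPM are per 1000000 spliced and ambiguous UMIs of a class. Intervals are exact at 95%, Poisson for CPM, conditional binomial (Clopper-Pearson) for ratios and shares. The median gene rests on genes that had 50 or more UMIs in each group, and free RNA from barcodes with under 50 UMIs.

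The rule for the members, the lists and the comparisons were chosen with earlier results of these data known. The plan was to name all mitochondrial members, all of complex II and the nuclear member with the most UMIs in each complex. Also planned were members with a tissue form and, per comparison, the 3 largest rises and falls with at least 100 UMIs. Size was judged by the interval end nearest 0. Not all of these are given with values in the text, for example mt-Nd1, mt-Nd3 and mt-Nd5. Other members named, the genes named from other lists and Rgs5 were chosen after their values were seen. Alternatives varied the filters, naming, scaling, free RNA and fold. The scripts were tested on simulated data. The work ran on scanpy 1.11.5, scipy 1.17.1 and numpy 2.4.6 under Python 3.11.15.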

Additional observations from a re-analysis of the deposited data

Results flagged for a closer look

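The summed members went different ways in different classes after light damage. For the nuclear members the log2 ratio of light damage over control was 0.033 in RPE, against -0.35 in cytoplasm-rich rods, -0.64 in nucleus-rich rods, -0.64 in cones and -0.75 in Müller glia. For the mitochondrial members it was 0.57 in RPE, against -0.10 in cytoplasm-rich rods, -0.90 in nucleus-rich rods, -0.29 in cones and -0.68 in Müller glia. RPE was set against the other classes because its pooled ratios lay above 0 where theirs lay below, all within the same 2 libraries. With droplets weighted alike this contrast did not hold throughout. The nuclear ratio of RPE was then -0.05, and the mitochondrial ratios of cones and Müller glia were 0.22 and 0.40. The difference between the classes was not tested, since each condition has 1 library.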

How the results depend on the processing

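The values below are log2 ratios of the summed members, light damage over control or nucleus-rich over cytoplasm-rich rods, for the settings that moved them beyond their counting interval. The direction held under every setting run, with 4 exceptions: the mitochondrial ratio of cones relative to the median gene (0.20), and, with droplets weighted alike, those of cones (0.22) and Müller glia (0.40) and the nuclear ratio of RPE (-0.05). The cause of the shifts was not tested. Equal weights, the limit on rod markers and counts relative to the median gene were chosen after the data had been seen.

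At a minimum of 1000 UMIs per droplet, the nuclear and mitochondrial ratios were -0.39 and -0.038 in cytoplasm-rich rods, the nuclear ratio was -0.73 in nucleus-rich rods and -1.05 in nucleus-rich against cytoplasm-rich control rods and the mitochondrial ratio was 0.54 in RPE, -0.32 in Müller glia and -2.00 in the same rods after light damage. With a mitochondrial limit of 5%, the nuclear and mitochondrial ratios were -0.32 and -0.065 in cytoplasm-rich rods and -0.62 and -0.77 in nucleus-rich rods and the mitochondrial ratio was -0.38 in cones, 0.65 in RPE, -0.84 in nucleus-rich against cytoplasm-rich control rods and -1.55 in the same rods after light damage. With a limit of 20%, the mitochondrial ratio was -0.12 in cytoplasm-rich rods, -1.22 in nucleus-rich against cytoplasm-rich control rods and -1.99 in the same rods after light damage. Without doublet removal, the nuclear and mitochondrial ratios were -0.57 and -0.75 in nucleus-rich rods, -1.07 and -1.01 in nucleus-rich against cytoplasm-rich control rods and -1.29 and -1.67 in the same rods after light damage. There the mitochondrial ratio was 0.53 in RPE. With unspliced UMIs added, the nuclear and mitochondrial ratios were -0.53 and -0.81 in nucleus-rich rods, -0.81 and -0.48 in cones, -1.98 and -2.15 in nucleus-rich against cytoplasm-rich control rods and -2.16 and -2.86 in the same rods after light damage. There the nuclear ratio was -0.59 in Müller glia. The wider gaps between the rod classes at this setting follow from the split on unspliced share. With classes from Leiden clusters, the nuclear and mitochondrial ratios were -0.67 and -0.91 in nucleus-rich rods, -0.50 and -0.43 in cones, -0.47 and -0.27 in Müller glia and -1.44 and -1.94 in nucleus-rich against cytoplasm-rich light damage rods. There the nuclear ratio was -0.34 in cytoplasm-rich rods. With naming limits 2 times as high, the nuclear and mitochondrial ratios were -0.59 and -0.87 in nucleus-rich rods, -0.44 and -0.21 in cones, 0.16 and 0.72 in RPE, -0.9997 and -1.03 in nucleus-rich against cytoplasm-rich control rods and -1.24 and -1.80 in the same rods after light damage. There the mitochondrial ratio was -0.91 in Müller glia. With free RNA subtracted, the nuclear and mitochondrial ratios were -0.62 and -0.88 in nucleus-rich rods, 0.065 and 0.91 in RPE, -0.53 and -0.36 in Müller glia, -1.15 and -1.17 in nucleus-rich against cytoplasm-rich control rods and -1.42 and -1.95 in the same rods after light damage. Relative to the median gene, the nuclear and mitochondrial ratios were -0.50 and -0.26 in cytoplasm-rich rods, -0.68 and -0.94 in nucleus-rich rods, -0.15 and 0.20 in cones, 0.14 and 0.68 in RPE, -0.18 and -0.12 in Müller glia, -1.62 and -1.64 in nucleus-rich against cytoplasm-rich control rods and -1.89 and -2.40 in the same rods after light damage. With totals free of mitochondrial, ribosomal protein and ribosomal RNA-like genes, the nuclear and mitochondrial ratios were -0.67 and -0.93 in nucleus-rich rods, -1.23 and -1.25 in nucleus-rich against cytoplasm-rich control rods and -1.55 and -2.07 in the same rods after light damage. Without rods of 20 to 30% unspliced UMIs, the nuclear and mitochondrial ratios were -0.47 and -0.67 in nucleus-rich rods, -1.32 and -1.40 in nucleus-rich against cytoplasm-rich control rods and -1.44 and -1.97 in the same rods after light damage. With the unspliced share taken without the members, the nuclear and mitochondrial ratios were -0.73 and -0.9956 in nucleus-rich rods and -1.02 and -1.02 in nucleus-rich against cytoplasm-rich control rods. With droplets weighted alike, the nuclear and mitochondrial ratios were -0.36 and -0.070 in cytoplasm-rich rods, -0.73 and -0.56 in nucleus-rich rods, -0.050 and 0.41 in RPE, -0.84 and 0.40 in Müller glia, -1.35 and -1.23 in nucleus-rich against cytoplasm-rich control rods and -1.72 and -1.73 in the same rods after light damage. There the mitochondrial ratio was 0.22 in cones. With only droplets under 20 rod-marker UMIs per 1000, the nuclear and mitochondrial ratios were -0.49 and -0.90 in cones, 0.061 and 0.63 in RPE and -0.53 and -0.54 in Müller glia.

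At a limit of 1.5-fold, 1 nuclear member in place of 42 was lower in cytoplasm-rich rods and 0 in place of 4 in RPE. Of all genes, 228 of 8060 and 478 of 3993 were lower at that limit. Relative to the median gene, 64 were lower in cytoplasm-rich rods, 15 in place of 46 in cones, 0 in place of 4 in RPE and 3 in place of 7 in Müller glia. Of all genes, 1654 of 8060, 116 of 1377, 725 of 3993 and 104 of 709 were lower on that scale in these classes, in the same order. With 0.5 UMIs added and all nuclear members taken, the median ratio moved from -0.57 to -0.67 in cones and from -1.09 to -1.02 between the rods of the control.

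No paired analysis was possible because each condition has 1 library, and for the same reason leaving out a replicate gives no value. Depth limited cones and Müller glia most, where 25 and 80 members had under 100 UMIs. Light damage, the pool of mice, its sex and the library's depth cannot be told apart. The mitochondrial filter acts on the members themselves.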
